A study of Mus musculus with 34 samples.

Results

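Leptin is a hormone released by fat tissue that acts through its receptor LEPR, the kinase JAK2 and the transcription factors STAT3 and STAT5, and SOCS3 feeds back to shut the receptor off. Cumulus cells (CCs), a granulosa lineage, enclose the oocyte, feed it through gap junctions and, after the luteinizing hormone (LH) surge, build a hyaluronan matrix and begin to make progesterone. The comparison described here asked how gene expression in CCs differed between mice injected with leptin and mice injected with saline for 16 days. It holds 8 of the 34 RNA-seq libraries of the series, 5 from leptin-injected mice (16 L, replicates 18, 19, 20, 21 and 23) and 3 from saline-injected mice (16 C, replicates 1, 2 and 3), chosen by their group label and not by any measured value.

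All mice were C57BL/6J females that were 8 weeks old when the injections or diets began. Both groups were injected intraperitoneally 2 times a day and were superovulated before about 50 CCs per library were taken from the cumulus-oocyte complexes, and 16 L mice received recombinant mouse leptin at a total of 100 µg per day. The other 26 libraries came from diet experiments. Of these, 5 libraries from mice kept on chow diet for 4 weeks (4-week CD) are given as a reference level. Those mice received neither leptin nor saline. They come from another experiment and had been on chow for 4 weeks rather than injected for 16 days, so they were older at collection. Mice kept on a diet for 16 weeks were older still. The labels give CCs of 1 complex per library and the study's methods CCs of 1 animal, and no label ties libraries to litters or preparation days.

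Libraries held between 1104611 and 13207018 counted reads, and the deepest was 16 C replicate 2. Of 25965 entries counted, 18962 had a read in at least 1 of the 8 libraries and 11723 passed the filter on low counts and were tested. Levels are given as CPM, the read count of a gene scaled to a common library size with factors from the trimmed mean of M values (TMM), and are listed in the order of replicates given above. A gene was called when its adjusted p from edgeR's quasi-likelihood test was under 0.05, and fold changes are log2 of 16 L over 16 C with their standard error, so a negative value means a lower level after leptin. In samples of this kind fewer cells of a type and less RNA per cell cannot be told apart.

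Replicate 18 of 16 L stood apart from the other 7 libraries. The 13 oviduct epithelium markers summed to 36205 CPM in it, against 18.2 to 1703 CPM in the other 16 L libraries and 27.9 to 113 CPM in 16 C, and all 13 had a read. Ovgp1, the secreted oviduct glycoprotein, made up 33623 CPM of the sum in replicate 18. In replicates 20, 21 and 23 the oviduct markers summed to 1092, 1703 and 291 CPM, above every library of 16 C. The fit without replicate 18 therefore still holds oviduct RNA. The 5 red blood cell markers summed to 11288 CPM and the 12 theca and stroma markers to 1989 CPM in replicate 18. Replicate 21 held 1908 CPM of red blood cell markers and the other 6 libraries at most 34.1 CPM, so that the fit without replicate 18 still holds a library with them, and their part in the results was not tested. In replicate 18 the 14 cumulus and granulosa markers summed to 906 CPM, against 3001 to 5640 CPM in the other 7. The 13 macrophage and neutrophil markers were at 1254 and 1402 CPM in replicates 20 and 23, 812 CPM in 16 C replicate 2 and 83.6 to 471 CPM in the rest. On that list Ly6g, a defining neutrophil marker, had 0 reads in all 8 libraries, but S100a8 and S100a9 had reads. S100a8 was at 2.94, 3.67 and 6.30 CPM in 16 C and 20.2, 0, 8.42, 33.9 and 8.13 CPM in 16 L. S100a9 was at 0, 2.72 and 1.48 CPM in 16 C and 6.17, 0, 3.37, 12.2 and 3.25 CPM in 16 L. Defining oocyte markers were near 0, with a sum of 2.20 to 10.8 CPM outside replicate 18 and 29.5 CPM in it. Counts are therefore given with all 8 libraries and without replicate 18, and each gene named here as called with 8 libraries was called in the same direction without it.

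**Figure D1:**
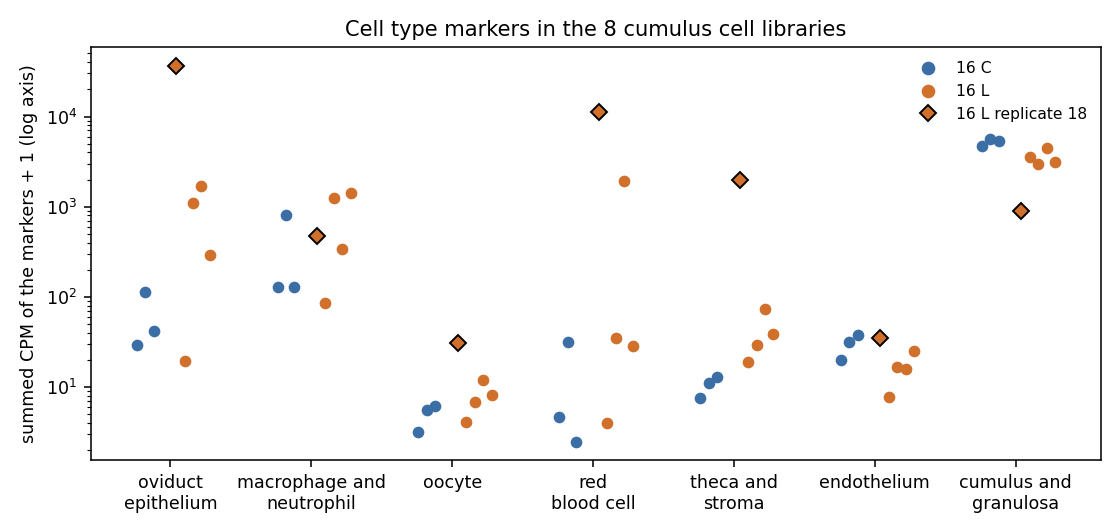
Summed CPM (plus 1, log axis) of 7 lists of cell type markers in the 3 libraries of 16 C (blue) and the 5 of 16 L (orange), 1 point per library. Replicate 18 (diamond) had 36205 CPM of oviduct epithelium markers and the lowest sum of cumulus and granulosa markers, 906 CPM.

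Leptin-injected mice differed from saline-injected mice in 1004 of 11723 tested genes (8.56%). Of these 476 genes (4.06%) were higher and 528 (4.5%) were lower in 16 L. Without replicate 18 the test called 4635 of 11077 genes (41.8%), 2235 higher (20.2%) and 2400 lower (21.7%), and 995 of the 1004 genes were called again in the same direction. The common biological coefficient of variation was 0.616 with replicate 18 and 0.401 without it. CPM did not overlap between the groups for 23.3% of tested genes. The median gene had a log2 fold change of 0.27 with 8 libraries and 0.10 without replicate 18. When libraries were scaled to their totals in place of TMM, the median gene moved to 1.08 and the calls to 3652 higher and 383 lower, so that the direction of a small change depended on the scaling and changes below are relative to the TMM scale.

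Few of the calls held without each single library. Of the 1004 genes, 26 were called in the same direction in all 8 fits that each left out 1 library, all of them lower in 16 L. They included Nmt2, Ppp1r16b, Igsf3, Igsf11, Skil, Sdc4, Cdkn1b and Fdps among the genes named here. Without 16 C replicate 1 the test called 0 genes higher and 30 lower, without 16 C replicate 3 0 and 31, and without 16 C replicate 2 19 and 83. Without 16 L replicates 20, 21 and 23 it called 5, 29 and 2 genes higher and 59, 121 and 42 lower, and without 16 L replicate 19 871 and 732. The number of genes at an unadjusted p under 0.05 stayed between 2345 and 5683 over these 8 fits.

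The genes called lower included many of the most abundant transcripts of the saline libraries. In 16 C between 33.5 and 35.3% of reads fell on the 528 genes called lower, against 5.44 to 8.61% in 16 L. There were 70 of them with a mean of at least 1000 CPM in 16 C, whereas 0 of the genes called higher reached that mean in 16 L. The 50 most abundant genes of each library took 30.7 to 34.6% of its reads in 16 C and 13.4 to 19.8% in 16 L. The median gene called lower had a mean of 208 CPM in 16 C and 47.7 CPM in 16 L, and the median gene called higher had a mean of 6.85 CPM in 16 C and 31.0 CPM in 16 L.

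**Figure D2:**
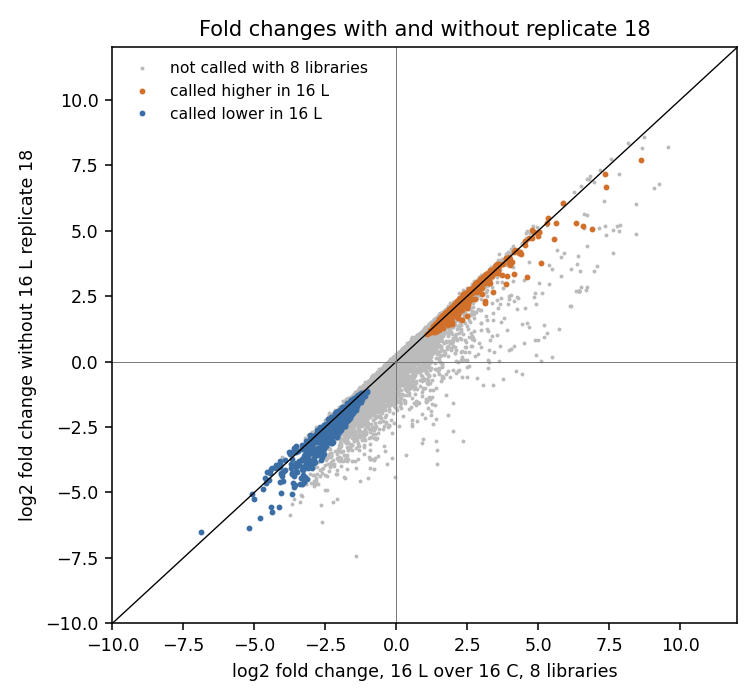
Log2 fold change of 16 L over 16 C for each gene tested both ways, with 8 libraries (x axis) and without replicate 18 (y axis). Coloured points are genes called with 8 libraries and the line marks equal values. Called genes lie near the line, and points far below it at the right are genes that were high in replicate 18.

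The called genes were placed within the whole series. Over the 528 genes called lower, the median log2(CPM + 1) was 7.67 to 7.78 in 16 C, 5.18 to 5.91 in 16 L and 5.28 to 5.81 in 4-week CD. Over the 476 genes called higher, it was 2.62 to 3.14 in 16 C, 4.48 to 5.22 in 16 L and 4.67 to 5.05 in 4-week CD. On these genes 16 L and 4-week CD overlapped, and 16 C lay apart from both. Libraries of mice kept on high-fat diet for 16 weeks, at 6.69 to 7.47 over the genes called lower, lay nearer to 16 C, and mice kept on chow for 16 weeks spread from 5.61 to 7.33. Over all 11723 tested genes, called or not, the mean of 4-week CD was nearer to 16 L than to 16 C for 74.7%.

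**Figure D3:**
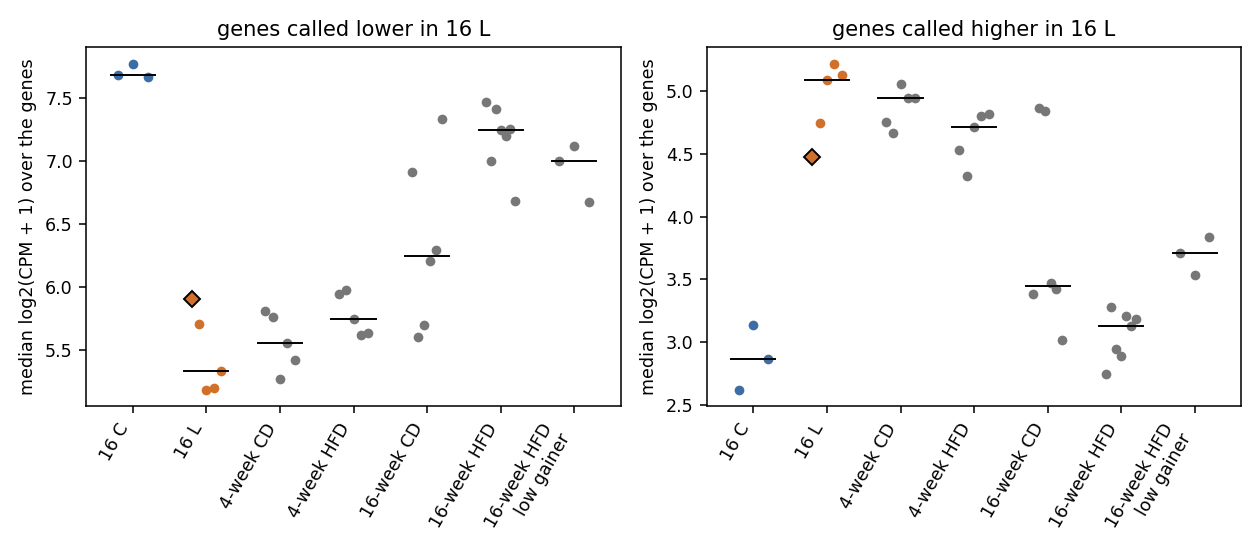
Median log2(CPM + 1) over the genes called lower (left) and called higher (right) in 16 L, for each of the 34 libraries of the series by group, with the group median as a line. The 3 libraries of 16 C lie at 7.67 to 7.78 on the left, and 16 L and 4-week CD share a range below 6. The genes were chosen on 16 C and 16 L, so the distance between those groups is a description.

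Tested against 4-week CD in place of 16 C, 16 L had 0 of 11415 genes called by edgeR (0%), with 1269 genes at an unadjusted p under 0.05, and DESeq2 called 98 higher and 31 lower. Without replicate 18 edgeR again called 0 genes, with 884 at an unadjusted p under 0.05, and DESeq2 called 75 higher and 58 lower. Tested against the same reference, 16 C had 5655 of 11837 genes called (47.8%). These comparisons share libraries with each other, so their values stand side by side. No label gives a sequencing batch, and whether the saline libraries differ by treatment or by their preparation cannot be told apart from these data.

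GC content moved with the result. The longest transcript of the genes called higher had a median GC content of 56%, that of the genes called lower 46.3%, and that of all tested genes 49.3%. With a correction for GC content within each library the test called 160 genes higher and 454 lower with 8 libraries, and 2071 higher and 2288 lower without replicate 18. Of the 78 genes named here as called with 8 libraries, 30 lost their call with the correction and 8 libraries, among them Spp1, Akr1c18, Star, Ltf, Akt2, Rela, Pnpla2, Lipe and Gpx3. With the correction and without replicate 18, 4 lost it, namely Por, Mapk3, Jund and Rpl8. The median transcript length was 3554.5 bases for genes called higher, 3730.5 for genes called lower and 3421.5 for all tested.

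Among genes called in both fits whose levels did not overlap, predicted genes aside, the 10 largest falls were in Lgr4, Igsf11, Ppp1r16b, Map3k1, Nmt2, Zfp948, Igsf3, Rhox5, Skil and Cldn18. Lgr4, a receptor for R-spondins that strengthens Wnt signalling, was at 8769, 12075 and 9432 CPM in 16 C and 855, 189, 79.6, 113 and 140.4 CPM in 16 L, a fold change of -5.19 ± 0.87, adjusted p = 0.0149, and -6.36 ± 0.41, adjusted p = 6.14e-05 without replicate 18. All 5 leptin libraries lay below all 3 saline libraries, and 4-week CD ranged over 118 to 625 CPM. Nmt2, an enzyme that attaches myristate to proteins, was at 13606, 13909.9 and 10397 CPM in 16 C and 609, 819.7, 289, 424 and 302 CPM in 16 L (-4.69 ± 0.58, adjusted p = 0.00758, and -4.87 ± 0.45, adjusted p = 8.71e-05 without replicate 18). Map3k1, a kinase of the JNK pathway, was at 2912, 3611 and 2361 CPM in 16 C and 333, 99.2, 33.3, 37.2 and 28.9 CPM in 16 L (-4.80 ± 0.88, adjusted p = 0.0197, and -5.97 ± 0.51, adjusted p = 7.36e-05 without replicate 18). Replicate 18 was the highest leptin library for Lgr4 and Map3k1 and lay between the others for Nmt2. Skil, a repressor of SMAD signalling, was at 7401 to 10762 CPM in 16 C and 264 to 731 CPM in 16 L with a fold change of -4.48 ± 0.54 (adjusted p = 0.00758). Ppp1r16b, a regulatory subunit of protein phosphatase, was at 587 to 1018 CPM in 16 C and 12.9 to 33.4 CPM in 16 L with -5.02 ± 0.44 (adjusted p = 0.00452). The cell adhesion proteins Igsf3 and Igsf11 fell by 4.59 and 5.08 on the log2 scale, from 8169 CPM or more and 1455 CPM or more in every saline library to at most 452 and 104 CPM. The zinc finger gene Zfp948, the homeobox gene Rhox5 and the claudin gene Cldn18 fell by 4.62, 4.54 and 4.44, and Rhox5 was low throughout, at 10.0 to 16.4 CPM in 16 C and 0 to 1.63 CPM in 16 L.

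The 10 largest rises, in Hey1, Ltf, Mme, Kit, Laptm5, Nbl1, Clec2d, Spnb1, Acpt and Abat, were in genes with few reads in the saline libraries. Hey1, a transcription factor switched on by Notch, had no read in 16 C and was at 29, 3.45, 10.5, 4.74 and 6.18 CPM in 16 L, at least 8.80-fold higher than the level 3 reads would give on average over the saline libraries, or at least 5.09-fold without replicate 18. Mme, a membrane peptidase, had 1 read in 16 C and 305 in 16 L, a ratio of 165 with a 95% counting interval of 29.3 to 6519. Without replicate 18 it had 77 reads in 16 L, a ratio of 55.5 (9.67 to 2220.3). Hey1, Mme, Ltf, Kit, Nbl1 and Abat were highest in replicate 18, the library with the most oviduct RNA. Ltf, the secreted iron-binding protein lactotransferrin, was at 0, 0.828 and 0 CPM in 16 C and 211, 2.49, 13.9, 50.1 and 8.45 CPM in 16 L. Replicates 18 and 21, the highest for Ltf, were also the highest for S100a8 and S100a9. Abat, the GABA transaminase, was at 0, 0.592 and 0.742 CPM in 16 C and 43.3, 5.27, 5.47, 7.45 and 4.55 CPM in 16 L. Kit, the receptor for KIT ligand, was at 0, 0.473 and 0 CPM in 16 C and 34.9, 14, 8.00, 4.74 and 5.85 CPM in 16 L, and Nbl1, a secreted BMP antagonist, at 0, 1.18 and 0.371 CPM in 16 C and 80.5, 6.43, 13.5, 12.9 and 11.1 CPM in 16 L. Without replicate 18 all 6 of these genes remained called, with adjusted p between 0.00264 and 0.01. That fit still holds oviduct RNA in replicates 20, 21 and 23, and the part of that RNA in these rises was not tested. Laptm5, a lysosomal protein of blood cells, was at 0, 3.19 and 0 CPM in 16 C and 10.1, 5.75, 99.4, 52.8 and 128 CPM in 16 L, and Clec2d, a C-type lectin, at 0, 1.18 and 0 CPM in 16 C and 11.5, 1.63, 39.6, 17.6 and 31.2 CPM in 16 L. Both were highest in replicates 20 and 23, the libraries with the largest sums of macrophage and neutrophil markers. Replicate 2 of 16 C, with 812 CPM of those markers, had 3.19 CPM of Laptm5 and 1.18 CPM of Clec2d. Replicate 21 of 16 L, with 337 CPM of them, had 52.8 and 17.6 CPM. The part of those cells was not tested. Spnb1, an older symbol of a spectrin gene, was at 1.47, 0.71 and 0.742 CPM in 16 C and 2.74, 19, 37.9, 27.1 and 36.4 CPM in 16 L (4.76 ± 0.93, adjusted p = 0.0242, and 5.02 ± 0.50, adjusted p = 1.06e-04 without replicate 18), and Acpt, an acid phosphatase, at 0, 0.828 and 0.371 CPM in 16 C and 3.43, 1.63, 19.4, 33.2 and 15 CPM in 16 L. For Spnb1 replicate 18 was the lowest leptin library and the other 4 were at 19 CPM or more, beside 15.1 to 37.7 CPM in 4-week CD.

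Genes of the cumulus programme were compared next. Counts of list members here and below stand beside 4.06% higher and 4.5% lower of all tested genes with 8 libraries, and 20.2% and 21.7% without replicate 18. Of 17 genes for the cumulus expansion matrix, 0 of 16 tested members were called higher and 1 lower (1 higher and 3 lower of 15 without replicate 18). The median log2 fold change was -0.29 with 8 libraries, -0.18 without replicate 18 and 0.60 with 8 libraries scaled to their totals. For all tested genes it was 0.27, 0.10 and 1.08 in the same fits. Sdc4, a heparan sulphate proteoglycan of the cell surface, was at 10253, 15412 and 8591 CPM in 16 C and 1016, 815, 496, 627 and 787 CPM in 16 L (-3.93 ± 0.52, adjusted p = 0.00829, and -4.15 ± 0.36, adjusted p = 7.67e-05 without replicate 18). It was at least 8591 CPM in each saline library and at most 1016 CPM in each leptin library, with 4-week CD at 293 to 939 CPM. Tnfaip6, which links hyaluronan to its protein partners in the matrix, was at 1056, 2059 and 1819 CPM in 16 C and 1.88, 251, 291, 163 and 379.7 CPM in 16 L (-2.92 ± 1.01, adjusted p = 0.0904, and -2.68 ± 0.37, adjusted p = 5.44e-04 without replicate 18). Replicate 18 had almost no Tnfaip6, and the other 4 leptin libraries lay beside 4-week CD at 217 to 459.6 CPM. Ptgs2, the prostaglandin synthase of ovulation, was at 77.1, 68.6 and 72.3 CPM in 16 C and 0.343, 133, 123, 31.1 and 102 CPM in 16 L (0.10 ± 1.06, adjusted p = 0.958, and 0.36 ± 0.42, adjusted p = 0.512 without replicate 18), and the groups overlapped. Vcan, a matrix proteoglycan, was at 409, 301 and 361 CPM in 16 C and 33.2, 447, 335, 209 and 274 CPM in 16 L with -0.46 ± 0.63 (adjusted p = 0.641), and Ptx3, a pentraxin that stabilizes the matrix, was at 22, 59.9 and 55.6 CPM in 16 C and 0, 9.21, 79.6, 2.03 and 129.7 CPM in 16 L. Neither Vcan nor Ptx3 passed the test in either fit, and replicate 18 was the lowest of the 8 libraries for both.

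Of 22 genes of steroid synthesis, 1 of 16 tested members was called higher and 3 lower (4 higher and 5 lower of 16 without replicate 18). Akr1c18, the enzyme that breaks down progesterone, was at 4088, 4058 and 3929 CPM in 16 C and 6.51, 695, 217, 242 and 331 CPM in 16 L (-3.75 ± 0.97, adjusted p = 0.0449, and -3.52 ± 0.43, adjusted p = 2.80e-04 without replicate 18). Soat1, which stores cholesterol as esters, was at 3484, 3846 and 5296 CPM in 16 C and 526, 895, 842, 577 and 974 CPM in 16 L (-2.46 ± 0.45, adjusted p = 0.0187, and -2.43 ± 0.31, adjusted p = 3.49e-04 without replicate 18). Star, the protein that carries cholesterol into mitochondria, was at 253, 177 and 183 CPM in 16 C and 30.8, 65, 70.3, 96.1 and 79 CPM in 16 L (-1.58 ± 0.38, adjusted p = 0.0394, and -1.47 ± 0.25, adjusted p = 0.00153 without replicate 18). All 3 were lower in each leptin library than in any saline library. In 4-week CD the range was 316 to 1168 CPM for Akr1c18 and 582 to 1445 CPM for Soat1. Star was at 126 to 405 CPM in 4-week CD, above every leptin library. Por, the electron donor of cytochrome P450 enzymes, was higher at 10.9 to 19.1 CPM in 16 C and 35.9 to 46 CPM in 16 L (1.38 ± 0.33, adjusted p = 0.0389). Cyp11a1, which makes pregnenolone, was at 1564, 2218 and 1568 CPM in 16 C and 124, 1712, 1136, 3098 and 1264 CPM in 16 L, a fold change of -0.28 ± 0.77 (adjusted p = 0.825). Hsd3b1, which makes progesterone, was at 3311, 3323 and 3208 CPM in 16 C and 301, 3287, 3569, 3724 and 3449.9 CPM in 16 L, a fold change of -0.19 ± 0.71 (adjusted p = 0.872) with replicate 18 and 0.02 ± 0.26 (adjusted p = 0.949) without it. Apart from replicate 18 the levels of Hsd3b1 spanned no more than 3208 to 3724 CPM over both groups.

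**Figure D4:**
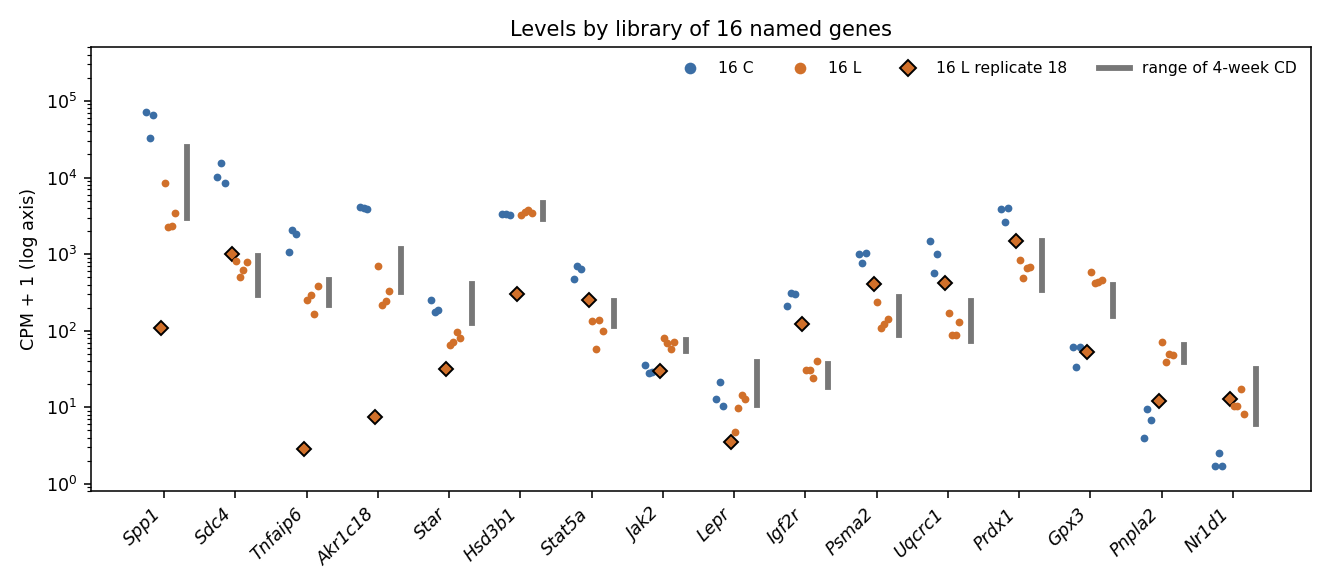
CPM (plus 1, log axis) of 16 named genes in the libraries of 16 C (blue) and 16 L (orange, replicate 18 as a diamond), with the range of the 5 libraries of 4-week CD as a grey bar. Spp1, Sdc4 and Akr1c18 were higher in each saline library than in any leptin library or in 4-week CD, and Hsd3b1 was level except in replicate 18.

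Of 20 genes of granulosa identity and FSH response 0 of 19 tested members were called higher and 0 lower (3 higher and 4 lower of 19 without replicate 18). Inha, the inhibin alpha subunit, was at 940.3, 436 and 950.4 CPM in 16 C and 577, 612, 557, 446 and 567 CPM in 16 L and Inhba, the inhibin beta A subunit, at 314, 217 and 314 CPM in 16 C and 108, 228, 274, 311 and 204 CPM in 16 L, and the groups overlapped for both. Foxl2, a transcription factor that keeps granulosa identity, was at 2.94, 6.51 and 5.93 CPM in 16 C and 7.20, 7.29, 17.7, 27.1 and 19.8 CPM in 16 L and passed the test without replicate 18 and not with it, 1.63 ± 0.52 (adjusted p = 0.03). Of the 22 genes of the LH response, 0 of 19 tested members were called higher and 2 lower (2 higher and 6 lower of 19 without replicate 18). The calls were for Cdkn1b and Cdkn1a, inhibitors of the cell cycle that accumulate as granulosa cells luteinize. Cdkn1b was at 4751, 11870.3 and 7985 CPM in 16 C and 692, 389.8, 397, 419 and 547 CPM in 16 L (-4.07 ± 0.52, adjusted p = 0.00825, and -4.31 ± 0.40, adjusted p = 8.59e-05 without replicate 18) and Cdkn1a at 622, 536 and 569.6 CPM in 16 C and 96.8, 131, 147, 270.1 and 144 CPM in 16 L (-1.87 ± 0.39, adjusted p = 0.027, and -1.81 ± 0.30, adjusted p = 0.00152 without replicate 18). The LH receptor Lhcgr was low, at 11.1 to 13 CPM in 16 C and 1.95 to 8.63 CPM in 16 L, with -1.26 ± 0.53 (adjusted p = 0.135).

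Signals between oocyte and CCs came next. Of 17 genes for EGF-like ligands and receptors, 2 of 11 tested members were called higher and 2 lower (2 higher and 5 lower of 11 without replicate 18). Erbb2, a receptor kinase of the EGF family, was at 1.47, 3.67 and 1.85 CPM in 16 C and 9.42, 22, 21.1, 23.7 and 30.2 CPM in 16 L (3.08 ± 0.56, adjusted p = 0.0188, and 3.12 ± 0.42, adjusted p = 4.97e-04 without replicate 18) and Mapk3, the kinase ERK1, at 12.2 to 14.7 CPM in 16 C and 28.3 to 63.7 CPM in 16 L (1.81 ± 0.37, adjusted p = 0.0263). Adam10, a protease that sheds ligands and cleaves Notch, was lower at 2779, 4944 and 3791 CPM in 16 C and 728, 579, 512, 355 and 488 CPM in 16 L (-2.85 ± 0.45, adjusted p = 0.0131, and -3.07 ± 0.33, adjusted p = 1.49e-04 without replicate 18), as was Dusp6, a phosphatase that switches off ERK, at 231 to 527 CPM in 16 C and 38.6 to 177 CPM in 16 L (-2.0 ± 0.51, adjusted p = 0.0429). Of 21 receptors and SMADs for oocyte signals, 0 of 21 tested members were called higher and 1 lower (5 higher and 2 lower of 20 without replicate 18), and the called gene was Id2, a target of BMP signalling, at 1438, 3068 and 1791 CPM in 16 C and 522, 92.1, 127, 146 and 157 CPM in 16 L (-3.33 ± 0.63, adjusted p = 0.023, and -4.10 ± 0.38, adjusted p = 8.51e-05 without replicate 18). Among 16 gap junction and cGMP genes 0 of 9 tested members were called higher and 0 lower (2 higher and 2 lower of 9 without replicate 18). Gja1, the main connexin between CCs, was at 11810.0, 37713 and 14056 CPM in 16 C and 4733, 7495, 1183, 628 and 1578 CPM in 16 L with -2.76 ± 0.88 (adjusted p = 0.0732) and -3.08 ± 0.82 (adjusted p = 0.0146) without replicate 18. The groups did not overlap for Gja1, and replicates 18 and 19 were the highest leptin libraries. Npr2, the receptor that makes cGMP, was at 17.1 to 28 CPM in 16 C and 30.3 to 59.4 CPM in 16 L (1.04 ± 0.35, adjusted p = 0.083, and 0.95 ± 0.33, adjusted p = 0.0413, without replicate 18).

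In the extracellular matrix and metalloprotease list of 22 genes, 1 of 20 tested members was called higher and 1 lower (9 higher and 2 lower of 20 without replicate 18), beside 4.06% higher and 4.5% lower of all genes, and 20.2% and 21.7% without replicate 18. The median fold change was 0.99 with 8 libraries, 1.12 without replicate 18 and 1.87 with 8 libraries scaled to their totals. The median gene was at 0.27, 0.10 and 1.08 in these fits. Spp1, the secreted matrix protein osteopontin, fell, at 72486, 32771 and 65873 CPM in 16 C and 109, 8469, 2243, 2325 and 3489.9 CPM in 16 L (-4.10 ± 1.06, adjusted p = 0.0449, and -3.86 ± 0.56, adjusted p = 6.79e-04 without replicate 18). Its level in 4-week CD was 2988 to 25187 CPM, below every saline library. Timp2, an inhibitor of metalloproteases, was higher at 5.14, 17.6 and 7.05 CPM in 16 C and 51.1, 33, 96, 56.9 and 101 CPM in 16 L (2.71 ± 0.57, adjusted p = 0.0284). It was at 12.0 to 37.4 CPM in 4-week CD, and each leptin library other than replicate 19 lay above that range. Against 4-week CD edgeR called Timp2 in neither 16 L (1.92 ± 0.42, adjusted p = 0.289) nor 16 C (-0.70 ± 0.47, adjusted p = 0.227). Col4a1, a basement membrane collagen, was at 108, 111 and 101 CPM in 16 C and 18, 476, 401, 217 and 437 CPM in 16 L and passed the test without replicate 18 (1.77 ± 0.31, adjusted p = 0.00191).

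Of 24 genes for the leptin receptor, JAK-STAT and SOCS, 0 of 22 tested members were called higher and 1 lower (7 higher and 4 lower of 22 without replicate 18), beside 4.06% higher and 4.5% lower of all genes with 8 libraries and 20.2% and 21.7% without replicate 18. The list had a median fold change of 0.64 with 8 libraries, 0.73 without replicate 18 and 1.52 with 8 libraries scaled to their totals. The median gene was at 0.27, 0.10 and 1.08 in these fits. Stat5a, a transcription factor that cytokine receptors activate, was at 478, 699.7 and 646 CPM in 16 C and 251, 133, 56.8, 137 and 98.2 CPM in 16 L (-2.17 ± 0.47, adjusted p = 0.0295, and -2.60 ± 0.34, adjusted p = 3.71e-04 without replicate 18). Replicate 18 was the highest leptin library, and 4-week CD ranged over 115 to 247 CPM. Lepr, the receptor, was at 11.8, 20.7 and 9.27 CPM in 16 C and 2.57, 3.74, 8.84, 13.5 and 11.7 CPM in 16 L (-0.83 ± 0.61, adjusted p = 0.367, and -0.71 ± 0.51, adjusted p = 0.279 without replicate 18), and the groups overlapped. Jak2, the kinase bound to the receptor, was at 34.5, 27 and 28.2 CPM in 16 C and 28.6, 78.5, 68.2, 57.5 and 71.2 CPM in 16 L (1.03 ± 0.39, adjusted p = 0.107, and 1.14 ± 0.24, adjusted p = 0.00476 without replicate 18). The 4 other leptin libraries lay above 16 C and near 4-week CD, at 53.6 to 74.8 CPM, and replicate 18 lay among the saline libraries. Stat3 was at 175, 149 and 165 CPM in 16 C and 307, 117, 75, 77.9 and 114 CPM in 16 L (-0.23 ± 0.49, adjusted p = 0.769, and -0.83 ± 0.24, adjusted p = 0.0215 without replicate 18), highest in replicate 18 and lower than 16 C in the rest. Socs3, the feedback inhibitor that leptin induces through STAT3 in other tissues, did not pass the filter, with reads of 1, 14 and 4 in 16 C and 20, 79, 3, 2 and 12 in 16 L. Its mean log2(CPM + 1) was 0.82 higher in 16 L (exact permutation test, two-sided p = 0.196, n = 5 and 3, smallest possible p = 0.0179).

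STAT proteins bind the palindrome TTCNNNGAA, which reads alike on both strands, and the promoters of the feedback inhibitors Socs3 and Cish hold it. The windows from 250 bases before to 50 bases after the start site are shown since they carry a motif that STAT proteins are known to bind, with the motif in capitals (RefSeq, GRCm38.p6, 5′ to 3′). Socs3 lies at chr11:117969317-117969616 on the - strand with 1 motif, and Cish at chr9:107296409-107296708 on the + strand with 2.
Socs3: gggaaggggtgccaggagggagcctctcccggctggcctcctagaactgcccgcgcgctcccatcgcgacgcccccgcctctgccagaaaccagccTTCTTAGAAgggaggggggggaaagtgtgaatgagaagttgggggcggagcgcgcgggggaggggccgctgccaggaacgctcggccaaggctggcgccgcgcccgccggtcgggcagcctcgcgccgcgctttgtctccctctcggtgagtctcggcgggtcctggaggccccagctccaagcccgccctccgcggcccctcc
Cish: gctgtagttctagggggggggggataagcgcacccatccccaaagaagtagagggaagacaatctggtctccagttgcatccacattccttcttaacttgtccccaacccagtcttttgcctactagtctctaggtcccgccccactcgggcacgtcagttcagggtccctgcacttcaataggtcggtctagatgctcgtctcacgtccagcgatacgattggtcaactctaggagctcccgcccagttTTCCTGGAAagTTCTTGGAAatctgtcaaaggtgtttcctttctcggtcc
Cish was tested and not called, with a log2 fold change of 0.84 ± 0.62 (adjusted p = 0.373). The motif was present in 22 of 367 promoters of genes called higher (5.99%, 95% Wilson interval 3.99 to 8.91%), in 21 of 368 of genes called lower (5.71%, 3.76 to 8.57%) and in 565 of 8359 of all tested genes (6.76%), each gene counted with 1 promoter where its symbol matched. Without replicate 18 the shares were 6.23% of genes called higher, 7.13% of genes called lower and 6.72% of all tested. Of all 27025 RefSeq promoters, 8.47% held it. The intervals of both called groups included the share of all tested genes.

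Of 30 genes of insulin and PI3K signalling, 3 of 30 tested members were called higher and 2 lower (10 higher and 9 lower of 30 without replicate 18). Igf2r, which clears IGF2, was at 207, 311 and 302 CPM in 16 C and 122, 29.3, 29.9, 23 and 39.3 CPM in 16 L (-2.48 ± 0.56, adjusted p = 0.0318, and -3.24 ± 0.28, adjusted p = 7.49e-05 without replicate 18). Replicate 18 was the highest leptin library for Igf2r and all 5 were below 16 C. Akt2, a kinase that insulin activates, was higher at 10.3, 9.94 and 10.4 CPM in 16 C and 25.2, 36.2, 30.3, 35.9 and 39.3 CPM in 16 L (1.71 ± 0.33, adjusted p = 0.0242, and 1.72 ± 0.27, adjusted p = 0.00106 without replicate 18), as was Igfbp4, which binds IGFs, at 7.35, 24.6 and 8.16 CPM in 16 C and 63, 24.7, 119, 139 and 163 CPM in 16 L (2.89 ± 0.72, adjusted p = 0.0411). Akt2 was level within 16 C, at 9.94 to 10.4 CPM. Irs2, an adaptor of the insulin receptor, was at 0.735, 2.13 and 0.371 CPM in 16 C and 0.171, 5.37, 7.16, 4.06 and 7.48 CPM in 16 L and passed the test without replicate 18 (2.13 ± 0.69, adjusted p = 0.0316), and Foxo1, a transcription factor that insulin restrains, did so at 67.6 to 111 CPM in 16 C and 61.8 to 232 CPM in 16 L (1.01 ± 0.33, adjusted p = 0.0353).

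Of 20 Notch genes 2 of 14 tested members were called higher and 1 lower (3 higher and 4 lower of 14 without replicate 18). Besides Hey1, Rbpj, the DNA-binding partner of Notch, was higher at 5.88, 13.1 and 17.1 CPM in 16 C and 21.2, 35.6, 79.6, 60.9 and 56.2 CPM in 16 L (2.05 ± 0.54, adjusted p = 0.0462, and 2.14 ± 0.42, adjusted p = 0.00317 without replicate 18). The receptor Notch2 was at 1535, 6182 and 2746 CPM in 16 C and 1752, 182, 125, 65.7 and 208 CPM in 16 L and its ligand Jag1 at 184, 493 and 252 CPM in 16 C and 730.5, 14.3, 17.7, 12.9 and 33.2 CPM in 16 L. Both were lower than 16 C in the 4 libraries other than replicate 18 and within or above the range of 16 C in replicate 18, and Notch2 (-2.90 ± 1.04, adjusted p = 0.0968, and -4.68 ± 0.58, adjusted p = 3.01e-04 without replicate 18) and Jag1 (-0.93 ± 1.30, adjusted p = 0.644, and -4.07 ± 0.46, adjusted p = 1.94e-04 without replicate 18) were called without it and not with it. Of 25 Wnt and R-spondin genes 1 of 21 tested members was called higher and 2 lower (5 higher and 5 lower of 19 without replicate 18). Znrf3, a ligase that removes Wnt receptors and is bound by R-spondin and LGR4, also fell, at 494, 763 and 495 CPM in 16 C and 170.3, 68.1, 27.4, 33.2 and 40.6 CPM in 16 L (-3.10 ± 0.61, adjusted p = 0.0242, and -3.86 ± 0.37, adjusted p = 9.09e-05 without replicate 18). Lrp5, a Wnt co-receptor, was at 0, 1.06 and 0 CPM in 16 C and 1.71, 20.9, 13.9, 16.2 and 12.4 CPM in 16 L (4.53 ± 1.12, adjusted p = 0.0401), and replicate 18 was the only leptin library near 16 C.

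NLRP3 is the sensor of the inflammasome, a complex that activates caspase-1 and interleukin-1β. Nlrp3 had no read in 16 C and 7 reads in 16 L, 6 of them in replicate 23 and 1 in replicate 18, and did not pass the filter (difference of mean log2(CPM + 1) 0.36, exact permutation test, two-sided p = 0.732, n = 5 and 3). A count of 0 allows a level of up to 0.355 to 2.20 CPM in a saline library, by counting error alone. Of the 17 genes of the list 1 of 15 tested members was called higher and 0 lower (2 higher and 2 lower of 15 without replicate 18). The call was Rela, a subunit of NF-kappaB, at 15.4, 20.4 and 13 CPM in 16 C and 22.1, 64.6, 82.1, 68.4 and 96.9 CPM in 16 L (2.03 ± 0.49, adjusted p = 0.0395, and 2.16 ± 0.30, adjusted p = 5.30e-04 without replicate 18). Il1b was at 0, 0.118 and 0 CPM in 16 C and 0, 0.192, 7.58, 7.45 and 14 CPM in 16 L, with 1 read in 16 C and 74 in 16 L, a ratio of 39.9 (95% counting interval 6.95 to 1598), and it was called without replicate 18 (6.02 ± 1.61, adjusted p = 0.0148). It was at least 7.45 CPM in replicates 20, 21 and 23, and the first and last of these had the largest sums of macrophage and neutrophil markers. Replicate 2 of 16 C, with 812 CPM of those markers, had 0.118 CPM of Il1b. Replicate 21 of 16 L, with 337 CPM of them, had 7.45 CPM. The part of those cells was not tested. Casp1 was at 0, 1.89 and 0.742 CPM in 16 C and 19.7, 0.671, 7.16, 4.74 and 3.58 CPM in 16 L (2.72 ± 1.15, adjusted p = 0.137), Pycard at 7.35, 15.1 and 5.56 CPM in 16 C and 57.7, 3.74, 19.4, 12.9 and 19.5 CPM in 16 L (1.25 ± 0.78, adjusted p = 0.289) and Il18 at 12.5, 13.5 and 13.7 CPM in 16 C and 42, 47.5, 11.4, 9.48 and 23.1 CPM in 16 L (1.02 ± 0.58, adjusted p = 0.244). Without replicate 18 the fold changes were 1.66 ± 1.0 (adjusted p = 0.203) for Casp1, 0.41 ± 0.61 (adjusted p = 0.603) for Pycard and 0.73 ± 0.52 (adjusted p = 0.28) for Il18. None of Casp1, Pycard and Il18 passed the test in either fit, and replicate 18 held the most Casp1 and Pycard.

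Immediate early genes mark recent signalling or handling of cells. Of 23 genes 1 of 20 tested members was called higher and 1 lower (8 higher and 3 lower of 20 without replicate 18). Myc was lower at 249, 285 and 288 CPM in 16 C and 47.6, 101, 17.3, 24.4 and 27.6 CPM in 16 L (-2.64 ± 0.54, adjusted p = 0.027, and -2.75 ± 0.54, adjusted p = 0.00325 without replicate 18) and Jund higher at 5.14, 17.2 and 12.2 CPM in 16 C and 45.4, 17, 105, 199 and 103 CPM in 16 L (2.98 ± 0.80, adjusted p = 0.0486, and 3.03 ± 0.74, adjusted p = 0.00998 without replicate 18). Nr4a1, an orphan nuclear receptor induced by LH, was at 5.88, 6.86 and 10.0 CPM in 16 C and 7.02, 33.7, 32.4, 54.8 and 48.1 CPM in 16 L and was called without replicate 18 (2.38 ± 0.34, adjusted p = 6.93e-04).

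**Figure D5:**
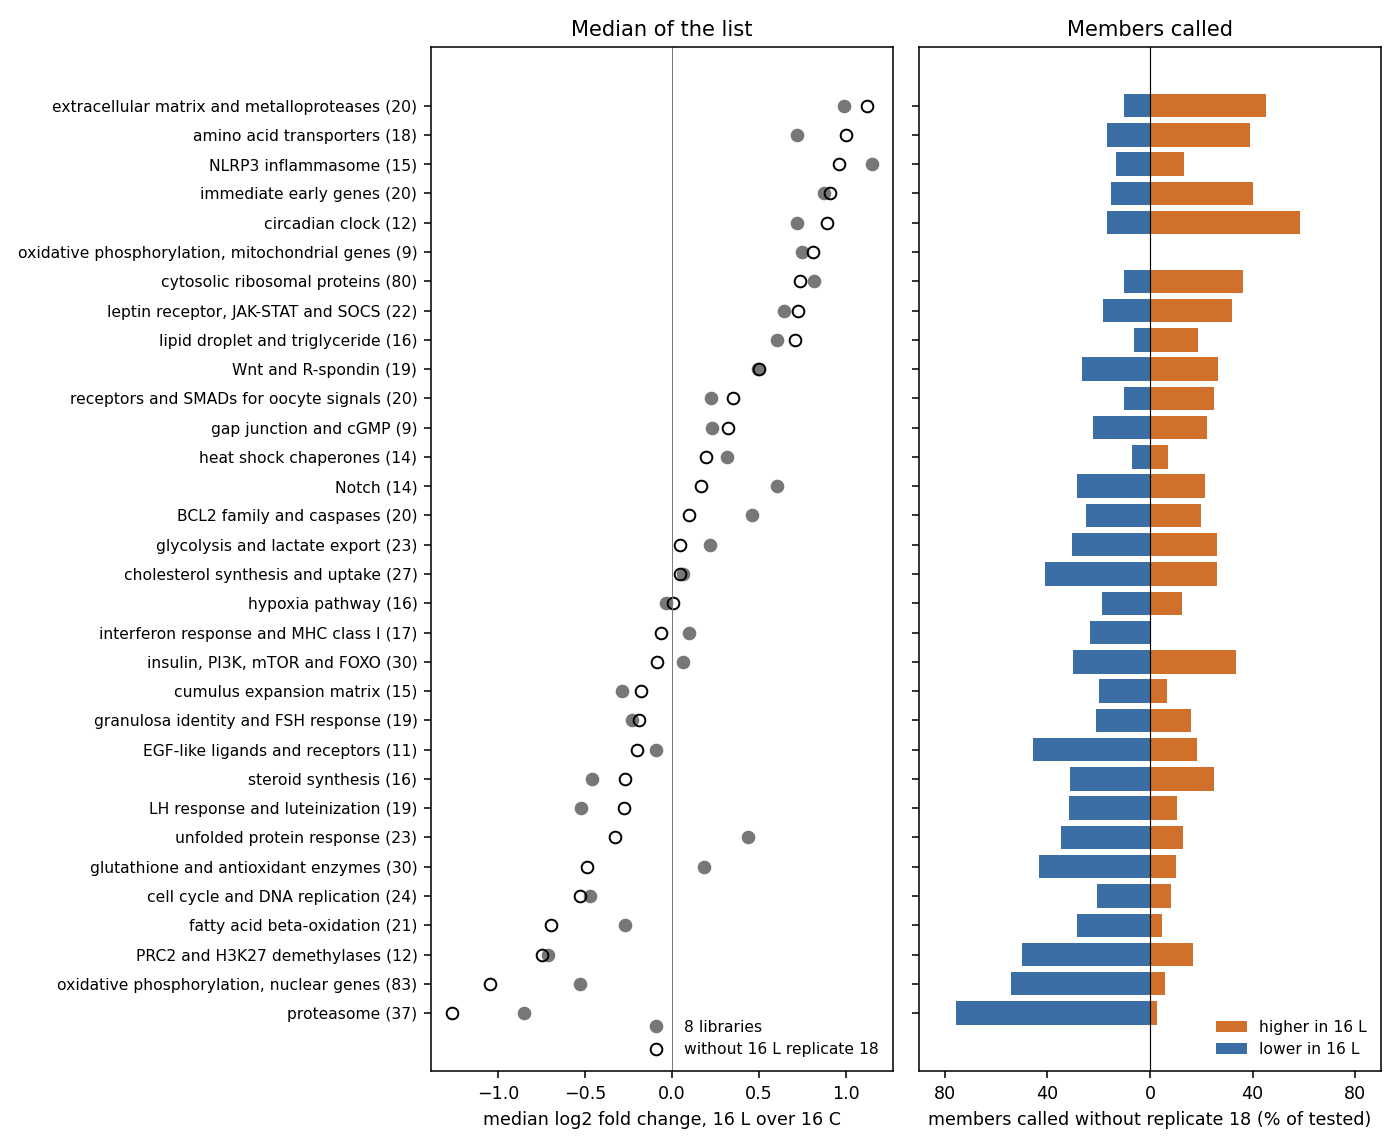
For each of 32 gene lists (number tested without replicate 18 in brackets), the median log2 fold change with 8 libraries (filled) and without replicate 18 (open) on the left, and the percent of members called higher or lower without replicate 18 on the right. Without replicate 18 the proteasome list, with 28 of 37 members lower, and the nuclear genes of oxidative phosphorylation, with 45 of 83 lower, have the lowest medians on the TMM scale. With 8 libraries the median of the latter was -0.53 on the TMM scale and 0.18 with library totals, beside 0.27 and 1.08 for the median gene. The share of all tested genes called lower was 21.7%.

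Of 83 nuclear genes of oxidative phosphorylation, 1 of 83 tested members was called higher and 3 lower, and 5 higher and 45 lower of 83 without replicate 18, beside 4.5% and 21.7% of all genes called lower in the same fits. The median fold change was -0.53 with 8 libraries and -1.04 without replicate 18, and 67 of 83 members lay below the median gene in the first fit and 72 in the second. With 8 libraries scaled to their totals the list's median was 0.18, a turned sign, beside 1.08 for the median gene. Uqcrc1, a core subunit of complex III, was at 1461, 564 and 1004 CPM in 16 C and 421, 168, 86.7, 88 and 128 CPM in 16 L (-2.50 ± 0.60, adjusted p = 0.0382, and -3.16 ± 0.38, adjusted p = 2.54e-04 without replicate 18). Ndufv2, a subunit of complex I, was at 779, 335 and 740.2 CPM in 16 C and 295, 129, 87.6, 107 and 123 CPM in 16 L (-2.06 ± 0.49, adjusted p = 0.0369), and Ndufaf1, an assembly factor of complex I, at 81.6 to 104 CPM in 16 C and 15.6 to 46.9 CPM in 16 L (-1.79 ± 0.39, adjusted p = 0.0298). In each of these 3 replicate 18 was the leptin library nearest to 16 C. Atp5d, a subunit of the ATP synthase, went the other way, at 42.6, 45.3 and 29.7 CPM in 16 C and 144, 131, 210.1, 234 and 226 CPM in 16 L (2.27 ± 0.38, adjusted p = 0.0148, and 2.27 ± 0.31, adjusted p = 5.36e-04 without replicate 18). Of 13 mitochondrially encoded genes 9 were tested and none was called in either fit, while replicate 19 had 4.71% of its reads on mitochondrial genes and the other 7 libraries at most 0.65%. For the nuclear members the correction for GC content gave 0 higher and 3 lower with 8 libraries and 3 and 50 without replicate 18. Against 4-week CD the median of the list was 1.29 in 16 C and 0.64 in 16 L, beside -0.09 and 0.08 for the median gene. In 16 C 58 of 83 tested members were called higher and 2 lower against it, and in 16 L 0 were called. Of all genes 47.8% and 0% were called in these comparisons.

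Of 23 genes of glycolysis and lactate export 1 of 23 tested members was called higher and 1 lower (6 higher and 7 lower of 23 without replicate 18). The hexokinases, which trap glucose in the cell, moved apart. Hk2 fell, at 503, 580.2 and 468 CPM in 16 C and 19.7, 41.2, 71.2, 62.3 and 94.3 CPM in 16 L (-3.17 ± 0.48, adjusted p = 0.0121, and -3.02 ± 0.32, adjusted p = 1.36e-04 without replicate 18), and Hk1 rose, at 2.94, 5.09 and 3.71 CPM in 16 C and 12, 29.9, 23.6, 28.4 and 27.6 CPM in 16 L (2.58 ± 0.47, adjusted p = 0.0187, and 2.64 ± 0.34, adjusted p = 3.85e-04 without replicate 18). Ldha, lactate dehydrogenase A, was at 836 to 1506 CPM in 16 C and 378 to 891 CPM in 16 L and Slc2a1, a glucose transporter, at 44.9 to 180.0 CPM in 16 C and 23.7 to 44.9 CPM in 16 L, and both were called lower without replicate 18 (-1.16 ± 0.36, adjusted p = 0.0257, and -1.65 ± 0.47, adjusted p = 0.0192). Of 23 genes of fatty acid oxidation 0 of 21 tested members were called higher and 1 lower (1 higher and 6 lower of 21 without replicate 18). Acsl4, which activates long-chain fatty acids, was at 7374, 13379 and 7939 CPM in 16 C and 528, 1227, 891, 764 and 943 CPM in 16 L (-3.46 ± 0.51, adjusted p = 0.0119, and -3.41 ± 0.36, adjusted p = 1.34e-04 without replicate 18), and Cpt1a, which lets them into mitochondria, was at 130.0 to 160.2 CPM in 16 C and 43.5 to 380.1 CPM in 16 L (0.64 ± 0.58, adjusted p = 0.465).

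Of 22 genes of lipid droplets and triglyceride 2 of 16 tested members were called higher and 0 lower (3 higher and 1 lower of 16 without replicate 18). The 2 were the lipases of stored fat. Pnpla2, which starts the breakdown of triglyceride, was at 2.94, 8.40 and 5.93 CPM in 16 C and 11.1, 71.4, 38.3, 48.1 and 47.5 CPM in 16 L (2.85 ± 0.63, adjusted p = 0.0315, and 2.95 ± 0.40, adjusted p = 4.65e-04 without replicate 18) and Lipe, hormone-sensitive lipase, at 1.47, 1.30 and 2.22 CPM in 16 C and 6.17, 13.7, 9.68, 9.48 and 9.43 CPM in 16 L (2.54 ± 0.56, adjusted p = 0.0309, and 2.60 ± 0.49, adjusted p = 0.00265 without replicate 18). All 3 saline libraries were below every leptin library for both, and 4-week CD was at 38.3 to 63.9 CPM for Pnpla2 and 12.1 to 25.3 CPM for Lipe. Of 27 genes of cholesterol synthesis and uptake, 0 of 27 tested members were called higher and 2 lower (7 higher and 11 lower of 27 without replicate 18). Fdps, farnesyl diphosphate synthase, was at 1193, 969 and 1035 CPM in 16 C and 60.8, 131, 56.8, 124 and 92.6 CPM in 16 L (-3.52 ± 0.42, adjusted p = 0.00758, and -3.47 ± 0.32, adjusted p = 8.71e-05 without replicate 18). Of 20 amino acid transporters 0 of 19 tested members were called higher and 1 lower (7 higher and 3 lower of 18 without replicate 18), namely Slc36a4 at 66.9 to 95.1 CPM in 16 C and 10.8 to 26.6 CPM in 16 L (-2.22 ± 0.35, adjusted p = 0.0131), and Slc7a5, a leucine transporter, was called higher without replicate 18 (1.37 ± 0.37, adjusted p = 0.0152).

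Of 32 genes of glutathione and antioxidant enzymes, 1 of 31 tested members was called higher and 5 lower (3 higher and 13 lower of 30 without replicate 18), beside 4.5% and 21.7% of all genes called lower. Here the correction for GC content gave 0 higher and 2 lower with 8 libraries and 3 and 12 without replicate 18. The median changed sign with replicate 18, 0.18 with 8 libraries, -0.49 without replicate 18 and 0.88 with 8 libraries scaled to their totals. The median gene was at 0.27, 0.10 and 1.08 in these fits, so the list's median lay below it in each. Prdx1, a peroxiredoxin, was at 3868, 2610.2 and 4015 CPM in 16 C and 1473, 837, 481, 662 and 669 CPM in 16 L (-2.08 ± 0.49, adjusted p = 0.0366, and -2.47 ± 0.30, adjusted p = 2.77e-04 without replicate 18). Mgst1, a microsomal glutathione transferase, was at 6435, 3375 and 5024 CPM in 16 C and 1121, 517, 432, 309 and 499 CPM in 16 L (-3.10 ± 0.54, adjusted p = 0.0173, and -3.56 ± 0.34, adjusted p = 9.09e-05 without replicate 18) and Mgst3 at 35 to 57.5 CPM in 16 C and 15.9 to 19 CPM in 16 L (-1.50 ± 0.30, adjusted p = 0.026). Replicate 18 was the leptin library nearest to 16 C for Prdx1 and Mgst1. Gpx3, the secreted glutathione peroxidase, rose, at 59.5, 32.5 and 61.2 CPM in 16 C and 51.9, 589, 425, 429.9 and 454 CPM in 16 L (2.94 ± 0.72, adjusted p = 0.0402, and 3.16 ± 0.31, adjusted p = 1.08e-04 without replicate 18). It was between 425 and 589 CPM in 4 leptin libraries and within the range of 16 C in replicate 18.

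Of 24 genes of the unfolded protein response 0 of 23 tested members were called higher and 1 lower (3 higher and 8 lower of 23 without replicate 18). The call was Canx, the chaperone calnexin, at 14148, 16795 and 13116 CPM in 16 C and 4150.0, 1028, 904, 873 and 1077 CPM in 16 L (-3.19 ± 0.68, adjusted p = 0.0294, and -4.0 ± 0.31, adjusted p = 6.14e-05 without replicate 18). The median of the list changed sign with replicate 18, 0.43 with 8 libraries, -0.33 without replicate 18 and 0.96 with 8 libraries scaled to their totals. The median gene was at 0.27, 0.10 and 1.08 in these fits. Hspa5, the central chaperone of the endoplasmic reticulum, was at 615, 609.6 and 581 CPM in 16 C and 2346, 573, 501, 599 and 431 CPM in 16 L. Replicate 18 alone was high for Hspa5 among the 8 libraries. Of 17 heat shock chaperones 1 of 15 tested members was called higher and 1 lower (1 higher and 1 lower of 14 without replicate 18), with Bag3, a co-chaperone, higher at 0, 5.68 and 7.79 CPM in 16 C and 44.7, 25.9, 120.0, 97.5 and 90.7 CPM in 16 L (3.97 ± 0.88, adjusted p = 0.0316) and Trap1, a mitochondrial chaperone, lower at 177 to 227 CPM in 16 C and 30.7 to 92 CPM in 16 L (-1.79 ± 0.41, adjusted p = 0.0343). Of 19 genes of the hypoxia pathway 1 of 17 tested members was called higher and 2 lower (2 higher and 3 lower of 16 without replicate 18). Egln2, an oxygen sensor, was higher at 9.27 to 16.1 CPM in 16 C and 25.4 to 78.3 CPM in 16 L (2.11 ± 0.48, adjusted p = 0.0331), whereas Arnt, the partner of HIF1A, and Bnip3, a mitophagy receptor, were lower at 104 to 155 CPM in 16 C and 25.7 to 63.9 CPM in 16 L (-1.68 ± 0.42, adjusted p = 0.043) and 1165 to 1783 CPM in 16 C and 96.8 to 384 CPM in 16 L (-2.97 ± 0.50, adjusted p = 0.0149). Hif1a, Egln1 and Vegfa, the hypoxia genes set to be named whatever their values, were not called in either fit. Hif1a, the oxygen-regulated factor, was at 301 to 383 CPM in 16 C and 176 to 798 CPM in 16 L (0.25 ± 0.50, adjusted p = 0.754, and 0.36 ± 0.36, adjusted p = 0.437 without replicate 18). Egln1, its main oxygen sensor, was at 36 to 43.5 CPM in 16 C and 16.3 to 62 CPM in 16 L (-0.04 ± 0.43, adjusted p = 0.963, and -0.36 ± 0.36, adjusted p = 0.446 without replicate 18). Vegfa, a growth factor of vessels, was at 27.1 to 62.1 CPM in 16 C and 10.5 to 55.6 CPM in 16 L (-0.16 ± 0.63, adjusted p = 0.88, and -0.04 ± 0.55, adjusted p = 0.955 without replicate 18). Of 22 genes of the BCL2 family and caspases 1 of 21 tested members was called higher and 0 lower (4 higher and 5 lower of 20 without replicate 18), and the call was Bak1, a pore-forming killer protein, at 1.47, 1.66 and 1.11 CPM in 16 C and 2.91, 6.33, 24, 24.4 and 25 CPM in 16 L (3.48 ± 0.86, adjusted p = 0.0402).

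The proteasome breaks down tagged proteins. Of 39 proteasome genes 1 of 37 tested members was called higher and 3 lower, and 1 higher and 28 lower of 37 without replicate 18, beside 21.7% of all genes called lower. The median was -0.85 with 8 libraries and -1.27 without replicate 18, and 36 of 37 members lay below the median gene in both fits. The list's median was -0.15 when scaled to library totals, beside 1.08 for the median gene. The correction for GC content gave 0 higher and 1 lower with 8 libraries and 1 and 28 without replicate 18. Psma2, a subunit of the core, was at 990.3, 774 and 1019 CPM in 16 C and 403, 234, 107, 123 and 141 CPM in 16 L (-2.20 ± 0.49, adjusted p = 0.0318, and -2.69 ± 0.31, adjusted p = 2.27e-04 without replicate 18). Psma5, another core subunit, was at 355 to 501 CPM in 16 C and 90.7 to 234 CPM in 16 L (-1.58 ± 0.38, adjusted p = 0.0379) and Psmd11, of the regulatory particle, at 219.6 to 279.9 CPM in 16 C and 53.3 to 160.2 CPM in 16 L (-1.69 ± 0.43, adjusted p = 0.0429). Psmd3 was the 1 member called higher, at 21.3, 19.8 and 18.9 CPM in 16 C and 240.2, 59, 61.5, 67.7 and 67.6 CPM in 16 L (2.31 ± 0.58, adjusted p = 0.0422, and 1.60 ± 0.24, adjusted p = 7.65e-04 without replicate 18). Against 4-week CD the median of the list was 1.51 in 16 C and 0.56 in 16 L, beside -0.09 and 0.08 for the median gene. In 16 C 31 of 37 tested members were called higher and 1 lower against it, and in 16 L 0 were called. Of all genes 47.8% and 0% were called in these comparisons.

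Of 83 cytosolic ribosomal protein genes 6 of 80 tested members were called higher and 0 lower (29 higher and 8 lower of 80 without replicate 18). Of all genes 4.06% and 20.2% were called higher in these fits. The list's median was 0.82 with 8 libraries, 0.73 without replicate 18 and 1.66 with 8 libraries scaled to their totals, beside 0.27, 0.10 and 1.08 for the median gene. Rpl28 was at 20.6, 47.9 and 39.3 CPM in 16 C and 85.8, 84, 229, 336 and 246 CPM in 16 L (2.44 ± 0.59, adjusted p = 0.0395, and 2.53 ± 0.50, adjusted p = 0.00332 without replicate 18) and Rps10 at 41.1, 61.1 and 56.7 CPM in 16 C and 112, 138, 218, 292 and 270.1 CPM in 16 L (1.96 ± 0.43, adjusted p = 0.0312, and 2.03 ± 0.33, adjusted p = 0.00132 without replicate 18). Rps20 and Rpl8 were also called, at 43.3 to 141 CPM in 16 C and 182 to 493 CPM in 16 L (1.98 ± 0.52, adjusted p = 0.0463) and 118 to 197 CPM in 16 C and 283 to 634 CPM in 16 L (1.61 ± 0.42, adjusted p = 0.047). For the list, the correction for GC content gave 1 higher and 0 lower with 8 libraries and 26 and 12 without replicate 18. Ribosomal protein genes took 1.23 to 2.07% of reads in 16 C and 2.38 to 4.68% in 16 L. These genes have many processed copies in the genome, so single values are uncertain.

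Of 26 cell cycle and replication genes 0 of 24 tested members were called higher and 1 lower (2 higher and 5 lower of 24 without replicate 18), namely Rrm2, a subunit of ribonucleotide reductase, at 58.8, 117 and 82.3 CPM in 16 C and 34.9, 16.9, 8.42, 4.74 and 18.9 CPM in 16 L (-2.34 ± 0.56, adjusted p = 0.0379, and -2.86 ± 0.44, adjusted p = 9.65e-04 without replicate 18). Of 13 genes of PRC2, the complex that methylates histone H3 at lysine 27, and of the demethylases, 0 of 12 tested members were called higher and 2 lower (2 higher and 6 lower of 12 without replicate 18). Aebp2, a cofactor of PRC2, was at 212, 265 and 188 CPM in 16 C and 55.5, 36.8, 58.1, 56.2 and 79.6 CPM in 16 L (-1.95 ± 0.33, adjusted p = 0.0149, and -2.02 ± 0.30, adjusted p = 8.18e-04 without replicate 18) and Kdm6b, a demethylase, at 255, 401 and 296 CPM in 16 C and 140.1, 35.2, 67.4, 71.8 and 77 CPM in 16 L (-2.02 ± 0.43, adjusted p = 0.0294, and -2.42 ± 0.33, adjusted p = 5.08e-04 without replicate 18). Ezh2, the methylase, was at 100.5 to 318 CPM in 16 C and 51.6 to 95.6 CPM in 16 L and was called lower without replicate 18 (-1.33 ± 0.43, adjusted p = 0.0317).

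Of 15 circadian clock genes 1 of 12 tested members was called higher and 0 lower (7 higher and 2 lower of 12 without replicate 18). Of all genes 4.06% and 20.2% were called higher in these fits. The list's median was 0.72 with 8 libraries, 0.89 without replicate 18 and 1.59 with 8 libraries scaled to their totals, beside 0.27, 0.10 and 1.08 for the median gene. Nr1d1, the repressor REV-ERBα, was at 0.735, 1.54 and 0.742 CPM in 16 C and 11.8, 9.49, 9.26, 16.2 and 7.15 CPM in 16 L (3.26 ± 0.60, adjusted p = 0.0198, and 3.08 ± 0.59, adjusted p = 0.00281 without replicate 18), and Per1 was at 0, 3.67 and 1.48 CPM in 16 C and 2.74, 13.4, 16.4, 17.6 and 17.2 CPM in 16 L, called without replicate 18 (2.80 ± 0.64, adjusted p = 0.00728). Both lay inside the range of 4-week CD in most leptin libraries, 5.00 to 30.4 CPM and 12.2 to 39.1 CPM, and the hour of collection is not given in the sources used here. Of 21 interferon response and MHC class I genes 0 of 18 tested members were called higher and 0 lower (0 higher and 4 lower of 17 without replicate 18), and Isg15, an interferon-induced modifier, was at 6.30 to 13.8 CPM in 16 C and 1.26 to 30.5 CPM in 16 L (-1.90 ± 0.52, adjusted p = 0.0168, without replicate 18).

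A further 6 genes of the lists that were to be named whatever their values passed the test without replicate 18 and not with it, and the fold changes given for them are from that fit. Serp1, a stress protein of the endoplasmic reticulum, was at 105 to 113 CPM in 16 C and 206 to 761 CPM in 16 L (1.27 ± 0.25, adjusted p = 0.00354). Ctnnb1, the Wnt effector beta-catenin, was at 198 to 318 CPM in 16 C and 216 to 589 CPM in 16 L (0.91 ± 0.31, adjusted p = 0.0393). Sqle, an enzyme of cholesterol synthesis, was at 24.6 to 53.4 CPM in 16 C and 20.9 to 110.4 CPM in 16 L (0.93 ± 0.32, adjusted p = 0.0406). Clock, a core clock factor, was at 21.5 to 40.4 CPM in 16 C and 15.4 to 78.4 CPM in 16 L (0.81 ± 0.29, adjusted p = 0.0482). Btc, an EGF-like ligand, was lower in that fit, at 28.7 to 49.6 CPM in 16 C and 4.06 to 24.4 CPM in 16 L (-1.69 ± 0.49, adjusted p = 0.0207). Bax, a pore-forming protein of the BCL2 family, was also lower, at 130.0 to 149 CPM in 16 C and 46.2 to 151 CPM in 16 L (-1.05 ± 0.29, adjusted p = 0.0159). The other 28 such genes, not shown singly, were called in neither fit, with log2 fold changes of -1.17 to 1.40 with 8 libraries and, for the 27 tested, -1.10 to 1.24 without replicate 18.

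Other genes with a known place in CCs had too few reads to be tested. Reads in 16 C and 16 L were 30 and 22 for Ereg and 4 and 13 for Areg, EGF-like ligands of the ovulatory cascade, 21 and 98 for Cyp19a1, the aromatase, 2 and 33 for Amh, and 0 and 27 for the progesterone receptor Pgr. Replicate 18 held 82 of the Cyp19a1 reads and 20 of the Pgr reads. Exact permutation tests of the mean log2(CPM + 1) gave two-sided p = 0.554 for Ereg, 0.321 for Areg, 0.375 for Cyp19a1, 0.143 for Amh and 0.375 for Pgr (n = 5 and 3), and no difference was detectable at this depth.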

How the data were processed

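Cumulus cell RNA-seq libraries were made by the authors with a Smart-seq2 oligo-dT method. Trim Galore 0.4.2, HISAT2 2.0.5 and GRCm38 are named in the submitters' processing notes, and the counting program and its use of strand are not given in the sources used here, so overlapping and antisense genes cannot be told apart. The deposited values are raw read counts per gene, without normalization. Samples were grouped by their labels. Replicates differed by more than sampling noise in all 13 pairs compared (smallest chi-square per degree of freedom 6.87). Where nothing ties a library to a separate animal, p-values measure the spread between libraries.

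Counts of 16 L and 16 C were compared with edgeR 4.0.16 (R 4.3.3, limma 3.58.1), using TMM, its filter on low counts, the robust quasi-likelihood test and Benjamini-Hochberg adjustment at 0.05. Genes with too few reads were compared by exact permutation of log2(CPM + 1). Counting intervals are 95% and, with floors of 3 reads, cover counting error only. Named genes were the 10 largest rises and 10 largest falls called in the same direction with and without replicate 18, without overlap and with a mean of at least 10 CPM in the higher group, up to 4 called members of each list, and marked members of each list whatever their values. Predicted genes were not named, and a few genes that the rule selects are not reported here. The gene lists and members were chosen with earlier results of these data known. Alternatives were DESeq2 1.42.0, RLE scaling, library totals, other filters, each library left out and all 34 libraries in 1 fit. Added after the data were seen were 4-week CD in place of 16 C and a correction for GC content (GENCODE M21). Promoters are from RefSeq. On simulated data with 200 changed genes and 8 libraries, the test recovered 0% of genes changed by a log2 fold change of 1 or 2. At 3 it recovered 56%, and 5.88% of its calls were false. Without replicate 18 it recovered 0%, 59.5% and 85%, and 100%, 8.46% and 7.10% of its calls were false. More genes than 200 were called in the real data, and recovery depends on that number, so these rates need not hold there.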

Additional observations from a re-analysis of the deposited data

Results flagged for a closer look

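Among the 5 leptin libraries, 24 of 140 sets of values had 1 library far from the others. Chance flags about 1 in 20 groups, but these sets share the same 5 libraries and are not independent. That rate therefore cannot be set against the count. In 22 of the 24 the library apart was replicate 18. It was high for Hspa5 (2346 CPM, others 431 to 599), Jag1 (730.5 CPM, others 12.9 to 33.2), Nbl1 (80.5 CPM, others 6.43 to 13.5), Canx (4150.0 CPM, others 873 to 1077), Psmd11 (160 CPM, others 53.3 to 70.9), Psmd3 (240 CPM, others 59.0 to 67.7) and Abat (43.3 CPM, others 4.55 to 7.45).

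Replicate 18 was low for Tnfaip6 (1.88 CPM, others 163 to 380), Hsd3b1 (301 CPM, others 3287 to 3724), Akr1c18 (6.51 CPM, others 217 to 695), Col4a1 (18 CPM, others 217 to 476) and Gpx3 (51.9 CPM, others 425 to 589). It was also low for Irs2 (0.171 CPM), Slc7a5 (5.14 CPM), Hk1 (12.0 CPM), Per1 (2.74 CPM), Spnb1 (2.74 CPM), Nr4a1 (7.02 CPM), Lrp5 (1.71 CPM), Rela (22.1 CPM) and Sqle (20.9 CPM, others 72.2 to 110 CPM). Its cumulus and granulosa markers summed to 906 CPM, against 3001 to 4521 CPM in the others. Its oviduct markers were high in the same library, and their part in these values was not tested.

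Replicate 23 stood apart for Nlrp3, at 1.95 CPM from 6 reads, and replicate 19 for the share of reads on mitochondrial genes, 4.71% against 0.435 to 0.654% in the others.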

How the results depend on the processing

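No paired analysis was possible because the saline and leptin libraries share no replicate number. Genes called higher and lower were 1595 and 1034 with DESeq2, 3652 and 383 with library totals, 169 and 335 with no filter on low counts, 2720 and 1664 with all 34 libraries in 1 fit, 160 and 454 with the GC correction, and 2071 and 2288 with that correction and without replicate 18. With 4-week CD in place of 16 C they were 0 and 0 with edgeR, 0 and 0 without replicate 18, 98 and 31 with DESeq2, and 75 and 58 with DESeq2 without replicate 18. Leaving out 1 library gave 0 to 2235 genes higher and 30 to 2400 lower, and the highest counts were without replicate 18. Of 78 called named genes, 70 lost their call without at least 1 library, with an adjusted p of up to 0.203. The cause was not tested.

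Directions turned for some genes that were not called. With library totals the log2 fold change was 0.30 for Inha, 0.91 for Ptx3, 0.71 for Hsd3b1, 0.10 for Lepr, 0.29 for Isg15, 0.64 for Cyp11a1, 0.45 for Stat3, 0.53 for Inhba, 0.42 for Vcan, 0.082 for Bax, 0.74 for Egln1 and 0.78 for Vegfa. With at least 10 reads in every library it was 0.13 for Egln1 and 0.00052 for Vegfa. With the GC correction 30 of the 78 called named genes lost their call, and the log2 fold change was 0.0061 for Hsd3b1 and 0.15 for Inhba, and with the correction and without replicate 18 it was 0.21 for Ptx3, 0.31 for Hsd3b1, 0.032 for Cyp11a1, 0.35 for Inhba and 0.19 for Vcan. Leaving out 1 library gave -0.18 to 0.36 for Ptgs2, -0.27 to 0.75 for Hspa5, -1.0 to 0.25 for Ptx3, -0.30 to 0.023 for Hsd3b1, -0.15 to 0.38 for Hif1a, -0.36 to 0.17 for Egln1 and -0.37 to 0.35 for Vegfa. Depth of 1104611 reads in the shallowest library limits what can be said of genes with few reads.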
